A study of Mus musculus with 7 samples.

Results

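A set of 9 markers of immature or dedifferentiated β-cells was followed in pancreatic islets, the clusters of endocrine cells in which insulin-secreting β-cells predominate. They are 8 progenitor or dedifferentiation markers (*Neurog3*, *Sox4*, *Sox9*, *Aldh1a3*, *Gast*, *Cck*, *Fev* and *Npy*) and 1 maturity marker (*Ucn3*), chosen by name and matched through their Ensembl identifiers to 9 of the 21899 genes listed. The islets came from second-generation (F2) males on a wild-type C57BL/6J background. Founder dams received dihydrotestosterone in benzyl benzoate and corn oil late in pregnancy (androgen exposed, AE) or the same vehicle alone (control), and F1 sons mated with unrelated wild-type females sired the F2 mice, which had no androgen treatment of their own. The labels list 3 control-F2 and 4 AE-F2 samples. One library of each group was analysed, control-F2 replicate 1 and AE-F2 replicate 4, and the other 5 samples were not analysed here. Whole islets, freed with collagenase and picked by hand, were used rather than sorted β-cells. The age of these males and the number of animals behind each library were not given in the sources used here.

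The 2 libraries held 16285888 (control-F2) and 21278513 (AE-F2) estimated counts, so the AE-F2 library was 1.31 times deeper. Levels are given in CPM (counts relative to the library total, adjusted with edgeR's TMM factors). Where genes are compared with each other, levels are in TPM, computed here from the counts and the merged exon length of each gene. Each difference is a log2 ratio, AE-F2 divided by control-F2, after adding 0.5 counts, with a 95% Clopper-Pearson interval on how a gene's counts divide between the libraries. With 1 library per group no condition could be tested. The intervals cover counting error only, compare these libraries rather than the treatments, and have no replicate check. In whole islets, fewer cells of a type and less RNA per cell cannot be told apart.

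In the embryonic pancreas, SOX9 maintains multipotent progenitors, and a pulse of the basic helix-loop-helix factor NEUROG3 commits single cells to an endocrine fate, with SOX4 and the ETS factor FEV acting around and after that pulse. Newborn β-cells still make peptides such as NPY, and they gain UCN3, released together with insulin, as they mature. Under metabolic stress β-cells can lose mature gene expression and regain fetal genes, a state called dedifferentiation, for which *Aldh1a3*, an enzyme of retinoic acid synthesis, is a widely used marker, and gastrin (*Gast*) and cholecystokinin (*Cck*) are gut-type hormones that can appear in diabetic or obese islets.

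DNA methylation, a mark that the study followed, sits on CpG dinucleotides, so the start regions of 4 of the markers are shown with each CpG in capitals. The 4 were taken as the maturity marker, the marker that was higher in the AE-F2 library, the factor of endocrine commitment and 1 hormone that was barely detected. Each sequence runs 5′ to 3′ from 250 bases before to 50 bases after the annotated RefSeq start on GRCm38.p6, and no methylation was measured in these libraries. *Ucn3* lies at chr13:3945300-3945599 (minus strand), *Npy* at chr6:49822460-49822759 (plus strand), *Neurog3* at chr10:62132840-62133139 (plus strand) and *Gast* at chr11:100334157-100334456 (plus strand).
Ucn3: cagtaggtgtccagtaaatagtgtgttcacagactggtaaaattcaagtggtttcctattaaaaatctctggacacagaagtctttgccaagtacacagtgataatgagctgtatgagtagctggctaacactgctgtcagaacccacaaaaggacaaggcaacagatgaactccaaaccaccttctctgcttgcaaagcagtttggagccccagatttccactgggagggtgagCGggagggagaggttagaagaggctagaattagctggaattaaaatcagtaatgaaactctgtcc
Npy: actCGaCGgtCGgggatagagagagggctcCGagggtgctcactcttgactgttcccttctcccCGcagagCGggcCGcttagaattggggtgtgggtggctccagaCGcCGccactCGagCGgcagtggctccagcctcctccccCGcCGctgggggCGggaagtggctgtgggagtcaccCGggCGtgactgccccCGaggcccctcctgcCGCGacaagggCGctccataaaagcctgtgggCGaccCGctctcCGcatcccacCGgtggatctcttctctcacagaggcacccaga
Neurog3: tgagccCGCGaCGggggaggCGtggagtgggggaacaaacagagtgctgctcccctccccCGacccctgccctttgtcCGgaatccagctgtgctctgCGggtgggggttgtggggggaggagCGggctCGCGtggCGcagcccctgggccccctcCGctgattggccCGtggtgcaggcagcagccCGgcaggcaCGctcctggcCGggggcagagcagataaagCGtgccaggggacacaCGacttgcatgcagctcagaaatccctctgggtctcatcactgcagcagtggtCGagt
Gast: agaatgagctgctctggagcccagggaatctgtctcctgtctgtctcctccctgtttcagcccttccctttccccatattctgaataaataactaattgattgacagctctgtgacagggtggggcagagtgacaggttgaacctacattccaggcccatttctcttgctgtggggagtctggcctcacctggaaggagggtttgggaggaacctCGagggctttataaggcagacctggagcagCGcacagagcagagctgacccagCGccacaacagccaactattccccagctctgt

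The *Ucn3* window holds 1 CpG and is 44.7% G and C, against 24 CpGs and 68.0% for *Npy*, 19 CpGs and 68.3% for *Neurog3*, and 3 CpGs and 54.0% for *Gast*. Over 32851 windows of this length the median was 7 CpGs. Only 14.1% of them had no more CpGs than *Ucn3*, whereas 81.6% had no more than *Npy* and 73.5% no more than *Neurog3*. Of the other markers, *Fev* had 25 CpGs, *Sox4* 12 and *Cck* 10. A RefSeq window was found for 7 of the 9 markers, and *Sox9* and *Aldh1a3* had no entry. The E-box letters CANNTG, the kind of motif that basic helix-loop-helix factors such as NEUROG3 bind, were searched on both strands and occur in 72.3% of all windows. They occur once in *Neurog3*, 2 times in *Ucn3* and not in *Npy*.

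In the GENCODE M21 annotation of GRCm38 the protein-coding genes span chromosome 10 from 62133090 to 62134763 (*Neurog3*), chromosome 13 from 28948919 to 28953713 (*Sox4*), chromosome 11 from 112782224 to 112787760 (*Sox9*), chromosome 1 from 74881509 to 74885419 (*Fev*) and chromosome 7 from 66390890 to 66427517 (*Aldh1a3*). The peptide genes span chromosome 11 from 100334407 to 100336996 (*Gast*), chromosome 9 from 121489824 to 121495694 (*Cck*), chromosome 6 from 49822710 to 49829507 (*Npy*) and chromosome 13 from 3940688 to 3945349 (*Ucn3*).

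*Ucn3* was by far the most abundant of the 9, and the progenitor markers lay far below it in both libraries. *Ucn3* reached 901 TPM (control-F2) and 818 TPM (AE-F2), rank 53 and rank 52 of the 21899 genes by TPM. *Sox4* had 16.4 and 15 TPM, *Npy* 15.9 and 25.5, *Fev* 12.6 and 11.1, *Neurog3* 7.03 and 6.61, *Aldh1a3* 6.06 and 5.31, and *Sox9* 0.89 and 0.715, with the control-F2 value first. In the control-F2 library the counting intervals of the neighbours *Sox4* (15 to 17.8 TPM) and *Npy* (12.1 to 20.4) overlapped, as did those of *Npy* and *Fev* (10.6 to 14.8), and those of *Neurog3* (5.58 to 8.75) and *Aldh1a3* (5.23 to 6.98). In the AE-F2 library *Npy* (21.4 to 30.3 TPM) stood above *Sox4* (13.9 to 16.2), with intervals that did not overlap. With the longest transcript as the length, *Aldh1a3* (6.48 and 5.71 TPM) and *Neurog3* (6.10 and 5.75) changed places in the control-F2 library. *Gast* and *Cck* were at or near 0. Both libraries thus had far more of the maturity marker than of any marker of immature cells.

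**Figure D1:**
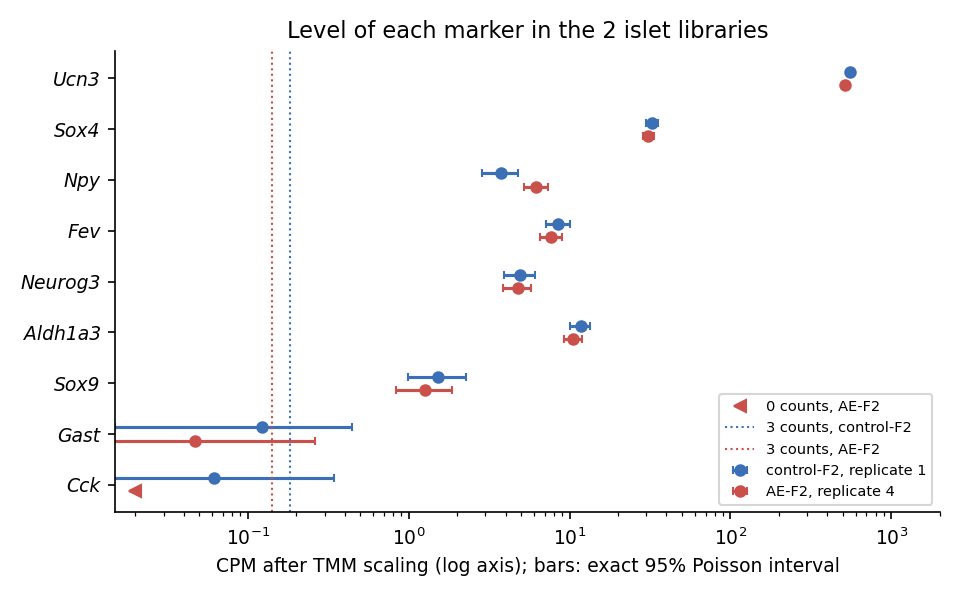
Level of each of the 9 markers in CPM (log axis) in control-F2 replicate 1 (blue) and AE-F2 replicate 4 (red), ordered by TPM in the control-F2 library, with exact 95% Poisson intervals and dotted lines at the level of 3 counts. The intervals of *Npy* (2.86 to 4.81 and 5.19 to 7.36 CPM) and of *Ucn3* (544 to 567 and 510 to 529 CPM) do not overlap between the libraries, *Gast* and *Cck* lie under 3 counts with bars that run off the axis, and the triangle marks *Cck* at 0 counts.

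Between the libraries, *Npy* was higher and *Ucn3* slightly lower in the AE-F2 library, and for the other 5 markers with enough counts the interval included equality. Of the 9 markers, 7 averaged 10 or more counts, the minimum used for all genes, and *Gast* and *Cck* did not. The interval lay above equality for 1 of the 7, against 13.2% of the 13627 genes that passed the same minimum, and below equality for 1 of the 7, against 13.7%. It included equality for 5 of the 7, against 73.1%. The log2 ratio was below 0 for 6 of the 7, against 50.3%, and above 0 for 1, against 49.7%. No marker reached a 2-fold difference in either direction. Among all genes 3.16% were at least 2-fold higher and 0.66% at least 2-fold lower in the AE-F2 library. The median log2 ratio of the 7 markers was -0.10, and that of all genes was -0.001. With 7 genes, 1 in each direction past the interval is near the share over all genes.

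**Figure D2:**
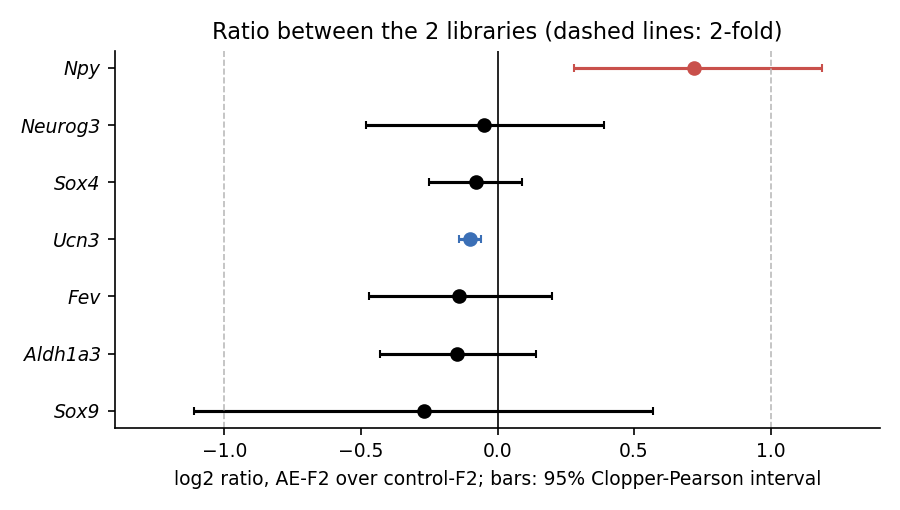
Log2 (AE-F2/control-F2) for the 7 markers that averaged 10 or more counts, with 95% Clopper-Pearson intervals (counting error only) and dashed lines at 2-fold. The interval of *Npy* (0.28 to 1.19) lies above 0, that of *Ucn3* (-0.14 to -0.06) lies below 0, and the other 5 include 0.

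*Neurog3* (ENSMUSG00000044312, chromosome 10), the switch of endocrine commitment, was detected in both libraries, with 79.91 (control-F2) and 101.47 (AE-F2) estimated counts. The levels were 4.91 and 4.75 CPM, with a log2 ratio of -0.05 (-0.48 to 0.39). As a fold the interval ran from 0.715 to 1.31, so these counts leave room for ratios in that range. In the GENCODE M21 annotation *Neurog3* shares 273 of its 1674 exonic bases with *Fam241b* on the other strand, and the library kit is not stated to mark strand. *Fam241b* had 197 and 309 counts, and its log2 ratio was 0.26, so reads of the shared bases may belong to either gene and the *Neurog3* level is uncertain.

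*Sox4* (ENSMUSG00000076431, chromosome 13), an HMG-box factor of endocrine differentiation, had the highest TPM of the 8 progenitor markers in the control-F2 library, within counting error of *Npy*. It held 51.7% (control-F2) and 50.3% (AE-F2) of their summed counts. It had 533 and 657 counts, or 32.7 and 30.9 CPM. The log2 ratio of -0.08 had the narrowest interval of the progenitor markers (-0.25 to 0.09), so that a difference beyond 0.842-fold or 1.06-fold lies outside the counting error. Of its exonic bases, 54.6% are shared with *Gm26735* on the opposite strand, a gene not analysed here, so the *Sox4* level is uncertain too.

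*Sox9* (ENSMUSG00000000567, chromosome 11), which marks pancreatic progenitors and, in the adult, duct cells, had 25 counts (control-F2) and 27 counts (AE-F2), or 1.53 and 1.27 CPM. Its log2 ratio was -0.27 with the widest interval of the 7 (-1.11 to 0.57), which includes a 2-fold decrease. Of 18 duct markers, 17 passed the minimum count, with 4 above equality, against 13.2% of all genes, 2 below, against 13.7%, and a median log2 ratio of 0.00. Of the 17, 2 were at least 2-fold higher, against 3.16% of all genes. Their summed level was 1243 and 1308 CPM, and the members with the most counts were *Krt7* (log2 ratio 0.24) and *Anxa5* (0.05). The duct keratin *Krt19* had 11 and 35 counts (log2 ratio 1.24, 0.28 to 2.41) and *Muc1* had 23 and 63 (1.05, 0.36 to 1.83), whereas the duct chloride channel gene *Cftr* had 5 counts in each library. The part of duct cells in the *Sox9* level was not tested.

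*Fev* (ENSMUSG00000055197, chromosome 1), known as the factor of serotonergic neurons and also made by endocrine precursors, had 138 counts (control-F2) and 164 counts (AE-F2). These were 8.47 and 7.71 CPM, a log2 ratio of -0.14 (-0.47 to 0.20). The difference was within the counting error.

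*Aldh1a3* (ENSMUSG00000015134, chromosome 7), the dedifferentiation marker of the list, had 190 counts (control-F2) and 224 counts (AE-F2), or 11.7 and 10.5 CPM. The log2 ratio was -0.15 (-0.43 to 0.14), and an increase beyond 1.10-fold lay outside the interval. A ratio of 2 genes within a library does not depend on the scaling between libraries. Per 100 *Ucn3* counts there were 2.10 *Aldh1a3* counts (1.81 to 2.42) in control-F2 islets and 2.03 (1.77 to 2.32) in AE-F2 islets, and the intervals overlapped.

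Gastrin and cholecystokinin were at the limit of detection. *Gast* (ENSMUSG00000017165, chromosome 11) had 2 counts (control-F2) and 1 count (AE-F2). *Cck* (ENSMUSG00000032532, chromosome 9) had 1 and 0. The upper bounds of the exact Poisson intervals were 0.443 CPM (control-F2) and 0.262 CPM (AE-F2) for *Gast*, and 0.342 and 0.173 CPM for *Cck*. Since both genes were under 3 counts in each library, no ratio is given. Of the 4 genes of ligands and receptors 1 passed the minimum count, the receptor gene *Cckar*, which had 21 and 28 counts (log2 ratio 0.02, -0.84 to 0.92), and *Cckbr* had 1 and 0.

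*Npy* (ENSMUSG00000029819, chromosome 6), a peptide of sympathetic nerves and newborn β-cells that restrains insulin secretion, was the 1 marker that was higher in the AE-F2 library. It had 61 counts (control-F2) and 132 counts (AE-F2), or 3.74 and 6.21 CPM. The difference was 1.65-fold (1.22 to 2.29), a log2 ratio of 0.72. Among the 2700 genes with a mean of 50 to 200 counts, 4.78% had a log2 ratio at least as high, and 13.4% had an interval above equality. Per 100 *Ucn3* counts there were 0.674 *Npy* counts (0.515 to 0.867) in control-F2 islets and 1.20 (0.999 to 1.42) in AE-F2 islets, and these intervals did not overlap.

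Of 8 NPY family ligands and receptors, 4 passed the minimum count, with *Npy* and *Pyy* above and none below equality, where 13.2% and 13.7% of all genes lay. Without *Npy* it was 1 of 3. The related peptide gene *Pyy* was 1.08-fold as high in the AE-F2 library (log2 ratio 0.11, 0.09 to 0.14) and pancreatic polypeptide (*Ppy*) had a log2 ratio of -0.02 (-0.04 to 0.00). Per 100 *Pyy* counts there were 0.332 *Npy* counts (0.254 to 0.426) and 0.509 (0.426 to 0.604). Receptors for NPY were barely detected. *Npy1r* had 13 and 12 counts, *Npy4r* and *Npy5r* each had 0 and 1, and *Npy2r* and *Npy6r* had 0 in both libraries.

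Some markers of nerve cells, which make NPY, and of α-cells were also higher in the AE-F2 library, where 13.2% of all genes lay above and 13.7% below equality. Of 13 nerve and Schwann cell markers, 8 passed the minimum count, of which 4 were above and none below equality, and their summed level was 54.3 CPM (control-F2) and 70.5 CPM (AE-F2). *Th*, the first enzyme of catecholamine synthesis, had 33.6 and 45.1 CPM, *Prph* had 67 and 120 counts and *Cdh19* 17 and 42, while *Dbh*, which makes noradrenaline, had 0 and 3. Of 9 α-cell markers with enough counts, 4 were above and none below equality and 5 included it, with a summed level of 17563 and 23722 CPM. Glucagon (*Gcg*) had a log2 ratio of 0.46, *Ttr* of 0.17, *Slc38a5* of 0.37 and *Gria3* of 0.64. The *Npy* counts per 100 *Gcg* counts, 0.0233 (0.0179 to 0.0300) and 0.0282 (0.0236 to 0.0335), overlapped between the libraries. The part of nerve cells or α-cells in the *Npy* difference was not tested.

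*Ucn3* (ENSMUSG00000044988, chromosome 13), which marks mature β-cells and whose peptide acts on the δ-cells of the islet, had 9047 counts (control-F2) and 11042 counts (AE-F2). The level was 555 CPM (544 to 567) and 519 CPM (510 to 529). The AE-F2 library was 0.936-fold as high (0.910 to 0.962), a log2 ratio of -0.10. Counting intervals are narrow at this depth, and 35.4% of the 387 genes that averaged 5000 or more counts lay below equality, with 22.5% at or under the log2 ratio of *Ucn3*. Scaled to the other β-cell maturity genes, *Ucn3* had a log2 ratio of 0.01 (-0.03 to 0.05). Per 100 counts of the insulin genes *Ins1* and *Ins2* there were 0.313 *Ucn3* counts (0.307 to 0.320) and 0.297 (0.292 to 0.303), with the AE-F2 library lower and no overlap.

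Of 7 urocortin ligands and receptors, 4 passed the minimum count, with *Ucn3* below and none above equality, where 13.7% and 13.2% of all genes lay. Without *Ucn3* it was 0 of 3. *Crhr2*, the receptor that UCN3 prefers, had 30 counts (control-F2) and 31 counts (AE-F2), with a log2 ratio of -0.34 (-1.11 to 0.44), and *Crhr1* had 34 and 33 (-0.43, -1.16 to 0.31). The related ligands *Ucn*, *Ucn2* and *Crh* had 0 counts in both libraries. The binding protein gene *Crhbp* had 30 and 27 counts. For these 3 receptor and binding protein genes the interval included equality.

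Summed over the 8 progenitor and dedifferentiation markers, the libraries held 1030 and 1306 counts, or 63.2 and 61.4 CPM, a ratio of 0.972 (0.895 to 1.06). Set against the maturity marker, there were 11.4 counts of the 8 markers per 100 *Ucn3* counts (10.7 to 12.1) in control-F2 islets and 11.8 (11.2 to 12.5) in AE-F2 islets. Without *Npy* the values were 10.7 (10 to 11.4) and 10.6 (10 to 11.3). With or without *Npy*, the intervals of the libraries overlapped. *Neurog3* contributed 0.884 and 0.915 counts per 100 *Ucn3* counts, *Sox4* 5.89 and 5.95, and *Fev* 1.53 and 1.49.

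**Figure D3:**
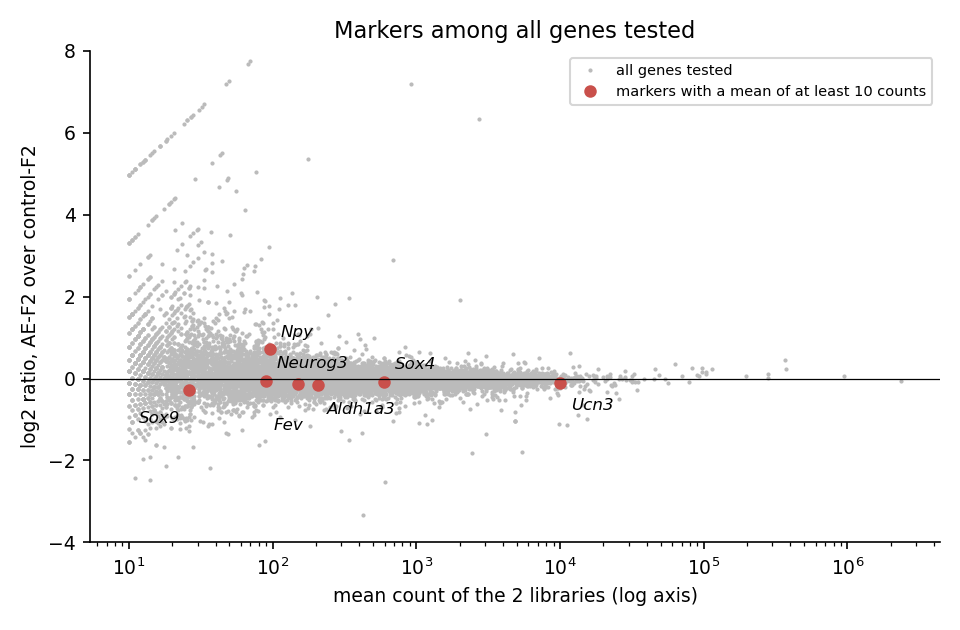
Log2 (AE-F2/control-F2) against the mean count (log axis) for 13627 genes that averaged 10 or more counts (grey), with the 7 markers in red. The markers lie inside the cloud of genes of similar level, with *Npy* (0.72) toward its upper edge and *Ucn3* (-0.10) at high counts.

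For most of the genes that act with the markers in endocrine development the interval included equality, a share near that over all genes. Most of their log2 ratios were nonetheless below 0. Of 26 genes of the endocrine progenitor cascade, which include *Neurog3*, *Sox4* and *Sox9*, 23 passed the minimum count. The interval included equality for 18, against 73.1% of all genes, lay below it for 5 (*Insm1*, *Neurod1*, *Prox1*, *Myt1* and *Foxa2*), against 13.7% of all genes, and lay above it for none, against 13.2%. The log2 ratio was below 0 for 19 of the 23, against 50.3% of all genes, and for 16 of the 20 genes left without the 3 markers. The median log2 ratio was -0.10, also over those 20 genes, and 0.00 when scaled to the β-cell maturity genes. *Insm1*, a zinc finger factor switched on by NEUROG3, had 247 and 210 CPM (log2 ratio -0.24, -0.30 to -0.18). *Myt1* and *Foxa2* had log2 ratios of -0.13 and -0.12. *Neurod1*, another target of NEUROG3, had -0.07 (-0.14 to 0.00) and *Prox1* -0.10. *Pax4*, active in the embryo downstream of NEUROG3, had 0 counts in both libraries.

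Notch signalling holds progenitors back from endocrine commitment by repressing *Neurog3* through HES1. Of 21 Notch pathway genes, 19 passed the minimum count, 1 lay above and 2 lay below equality, no larger shares than the 13.2% and 13.7% of all genes, and the median log2 ratio was 0.00. The receptor *Notch2* was higher in the AE-F2 library, with 79 and 161 counts (log2 ratio 0.64, 0.25 to 1.05). The ligands *Jag2* (-0.37, -0.51 to -0.24) and *Dll4* (-0.41, -0.62 to -0.20) were lower. *Notch1*, another receptor gene, had a log2 ratio of -0.08 (-0.19 to 0.03), and the repressor *Hes1* itself had 128 and 162 counts (-0.04, -0.39 to 0.30).

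Of 19 members of the Sox family, 10 passed the minimum count, and the interval included equality for all 10, as for 73.1% of all genes (median log2 ratio 0.09). *Sox12*, a close relative of *Sox4*, had 31.2 CPM in each library. *Sox11*, the third member of that subgroup, had 6 and 3 counts.

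Mature β-cell genes, *Ucn3* among them, were mostly slightly lower in the AE-F2 library. Of 28 β-cell maturity genes, 27 passed the minimum count, 19 lay below equality, against 13.7% of all genes, and 4 above, against 13.2%, and the median log2 ratio was -0.10, the same as that of *Ucn3*. Many of these genes have high counts, where counting intervals are narrow. Sums of markers of other cells were higher in the AE-F2 library for α-cells (17563 and 23722 CPM), mesenchyme (256 and 315 CPM) and lymphocytes (19.1 and 388 CPM), lower for acinar cells (2932 and 2577 CPM) and close for endothelial cells (756 and 749 CPM), and their part in the maturity gene differences was not tested. Among the lower ones, *Cox6a2*, a muscle-type respiratory subunit found in mature β-cells, had a log2 ratio of -0.56 (-0.79 to -0.34), the glucose transporter gene *Slc2a2* -0.28 (-0.31 to -0.25) and the transcription factor gene *Nkx6-1* -0.26 (-0.31 to -0.22). Above equality were *Iapp*, the islet amyloid peptide (0.23), *Foxo1* (0.14), *Syt7* (0.14) and *Ins1*. Without *Ins1* and *Ins2* the summed level of the list went the other way from its median, with 34284 and 36206 CPM (1.06-fold, 1.05 to 1.06). *Iapp* alone held 295337 of those 558789 counts (control-F2) and 450833 of the 769804 (AE-F2), so the sum leans on this gene. *Ins1* (0.07) and *Ins2* (-0.05) lay on opposite sides of equality, and reads that they share could be divided differently. When libraries were scaled to the list itself, its median was 0.00 by construction.

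**Figure D4:**
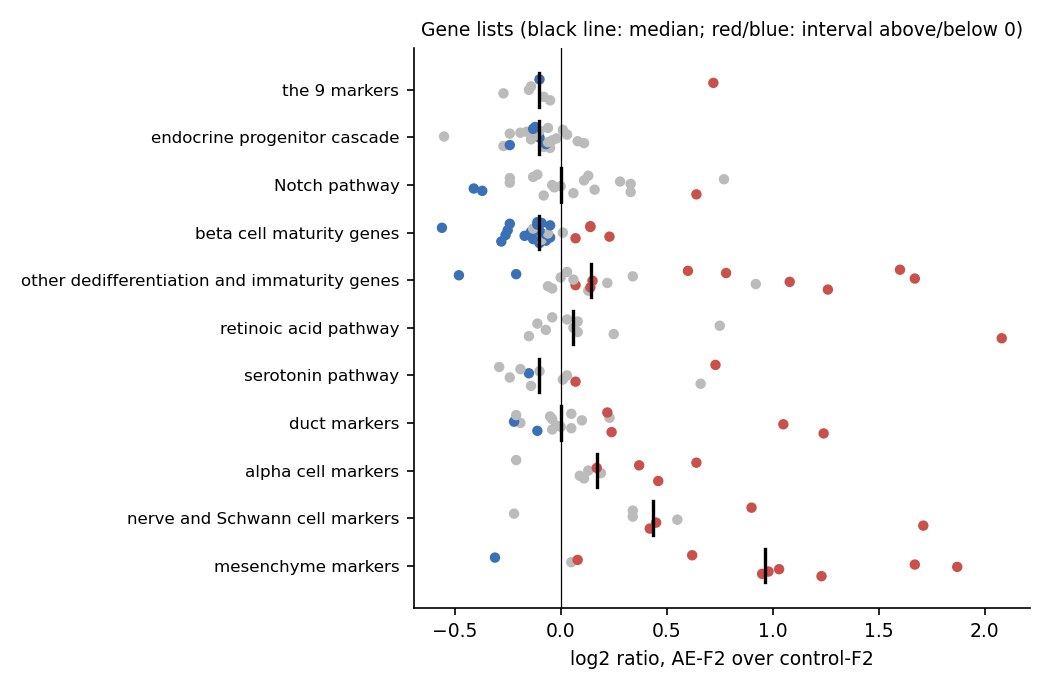
Log2 (AE-F2/control-F2) for each gene that averaged 10 or more counts, by list, with the list median as a black line. Red and blue points have a counting interval above or below equality and grey points include it, and the 7 markers with enough counts and the β-cell maturity genes both centre at -0.10 while the mesenchyme markers centre at 0.97.

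Other genes linked with dedifferentiated or immature β-cells were more often higher than lower in the AE-F2 library. Of 22 such genes, 20 passed the minimum count, 9 lay above equality, against 13.2% of all genes, and 2 below, against 13.7%, and the median log2 ratio was 0.14, or 0.07 with a minimum of 50 counts. Their summed counts went the other way (0.912-fold, 0.894 to 0.930). The gene with the most counts was *Txnip*, a glucose-responsive gene, with 542 and 388 CPM and a log2 ratio of -0.48 (-0.53 to -0.44). It held 8839 of the 18665 summed counts (control-F2) and 8255 of the 22195 (AE-F2), so the sum leans on this gene. Past 2-fold were *Pdgfra* (10 and 43 counts, log2 ratio 1.67), the monocarboxylate transporter gene *Slc16a1* (11 and 45, 1.6), *Mycl* (7 and 23, 1.26) and the intermediate filament gene *Vim* (208 and 574, 1.08). The pluripotency genes *Pou5f1* and *Nanog* had 0 counts in both libraries. *Gc*, second in counts, had a log2 ratio of 0.07 (0.00 to 0.14).

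*Pdgfra* and *Vim* are also genes of connective tissue, and markers of such cells were higher in the AE-F2 library. Of 10 mesenchyme markers, *Pdgfra* among them, 8 were above equality, against 13.2% of all genes, and 1 was below, against 13.7%, with a median log2 ratio of 0.97 and a summed level of 256 and 315 CPM. *Col3a1* had a log2 ratio of 0.98, *Col1a1* of 1.23 and *Lum* of 1.87, while the pericyte gene *Rgs5* had 0.08. All 7 lymphocyte markers with enough counts were above equality as well, with a summed level of 19.1 and 388 CPM. *Ighm* had 3.13 and 253 CPM, *Igkc* 0.552 and 85.6 CPM, and *Ms4a1*, which encodes CD20, 3 and 150 counts. The part of these cells in the *Pdgfra*, *Vim*, *Slc16a1* and *Mycl* differences was not tested.

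ALDH1A3 belongs to the retinoic acid pathway. Of 19 pathway genes, 11 passed the minimum count, 1 lay above and none below equality, no larger shares than the 13.2% and 13.7% of all genes, and the median log2 ratio was 0.06. The gene above was *Aldh1a1*, another enzyme that makes retinoic acid, with 7 counts (control-F2) and 41 counts (AE-F2), a log2 ratio of 2.08 (1.00 to 3.57). It was less abundant than *Aldh1a3*, at 0.910 TPM in the AE-F2 library against 5.31 TPM. *Aldh1a2* had 0 and 5 counts. The retinoid receptor gene *Rxra* had a log2 ratio of 0.03 (-0.09 to 0.15) and *Rbp4*, which encodes a retinol carrier, of 0.06 (-0.04 to 0.16).

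FEV drives serotonin genes in neurons and in β-cells. Of 19 serotonin pathway genes, 11 passed the minimum count, 2 lay above equality, against 13.2% of all genes, and 1 below, against 13.7%, and the median log2 ratio was -0.10. The rate-limiting enzyme gene *Tph1* had 0 counts in both libraries and *Tph2* had 7 and 15. *Ddc*, which makes the amine itself, had the most counts of the list, with a log2 ratio of 0.07 (0.02 to 0.12), and *Maob*, which breaks amines down, had -0.15 (-0.22 to -0.08). The ion channel receptor *Htr3a* had 27 and 59 counts (log2 ratio 0.73, 0.06 to 1.46).

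The ratios of most of the 7 markers moved little with the processing, but whether *Ucn3* lay below equality depended on the scaling. *Npy* stayed above equality under 9 of 9 alternatives, with log2 ratios from 0.60 to 0.83. Not all of these test the call separately. The DESeq2 and total-count scalings, both other minimum counts and the larger pseudocount left its interval unchanged (0.28 to 1.19). *Neurog3* (-0.06 to 0.05), *Sox4* (-0.08 to 0.02) and *Ucn3* (-0.14 to 0.01) took a positive value when scaled to the β-cell maturity genes, a scaling that moved the median of all genes from -0.001 to 0.101. Under it the *Ucn3* interval (-0.03 to 0.05) included equality. *Fev* (-0.14 to -0.03), *Aldh1a3* (-0.18 to -0.04) and *Sox9* (-0.31 to -0.17) were lower in the AE-F2 library under every alternative that gave a value, always within counting error of equality.

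**Figure D5:**
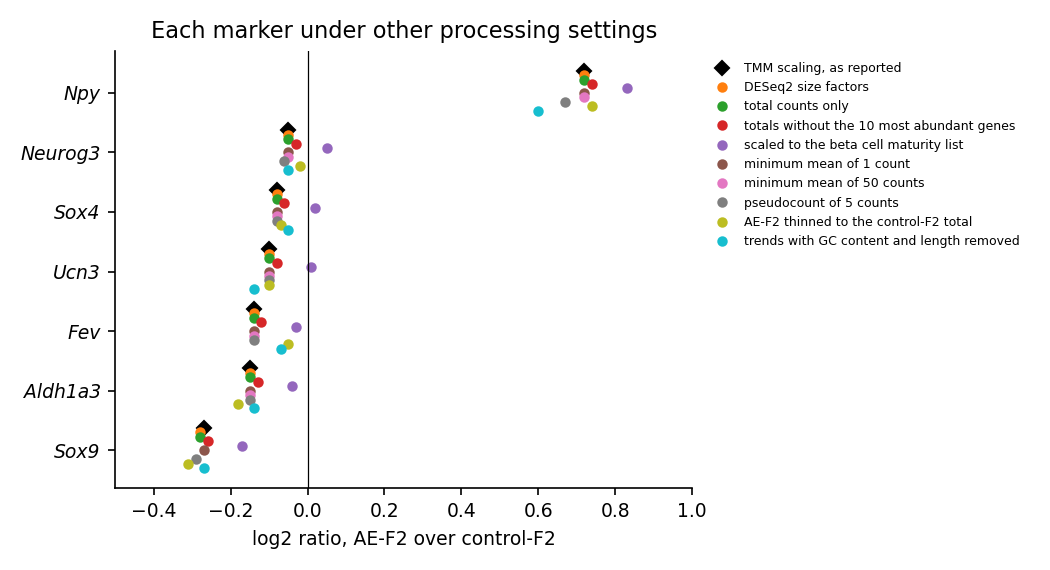
Log2 (AE-F2/control-F2) for the 7 markers with TMM scaling (black diamonds) and under 9 other settings (coloured points). The points of *Npy* stay between 0.60 and 0.83, and the purple points, scaled to the β-cell maturity genes, lie to the right of the black diamonds for each marker.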

How the data were processed

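RNA-seq of pancreatic islets from F2 males was analysed for 1 control-F2 and 1 AE-F2 library of the 7 labelled samples. According to the methods, poly(A) RNA was made into libraries with a NEBNext Ultra kit, sequenced on an Illumina instrument and aligned with HISAT2. The submitters' processing notes also name Bowtie2, RSEM, which estimates counts, and DESeq2, without saying which step made the deposited values. The genome build and annotation were not given in the sources used here. The authors deposited estimated counts per gene, not scaled for depth or length. In the control-F2 library 8.56% of values were not whole numbers and in the AE-F2 library 9.28%.

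Counts were rounded, and TMM factors for the 2 libraries came from edgeR 4.0.16 (R 4.3.3). Symbols, gene lengths and overlaps were taken from GENCODE M21 (GRCm38), which matched 21806 of 21899 identifiers and may not be the authors' annotation. The 13627 genes that averaged 10 or more counts were compared by log2 ratio with a pseudocount of 0.5 counts and a 95% Clopper-Pearson interval (scipy 1.17.1). Levels have exact Poisson intervals. A gene at or under 3 counts in both libraries was given no ratio. Reads copied by PCR do not count molecules independently, and intervals and limits therefore cover counting error only. With 1 library per group there was no fit and no p-value. The method was run on simulated counts with counting error only, a setting that cannot show how the intervals behave across animals.

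The 9 markers and the 22 gene lists beside them were chosen with earlier results of these data known. All 9 markers are named. From each other list the text names the 2 genes with the highest mean CPM and up to 3 with the largest ratio past the interval, together with the receptors of the marker ligands and the islet hormones. Of the genes this rule covers, 2 are not reported here. Other genes in the text were chosen after their values were seen. No gene is named for a like pattern, since 2 libraries give 1 ratio per gene. A total of 9 alternatives to the scaling, the minimum count, the pseudocount, the depth, and the GC content and length were tried, with DESeq2 1.42.0 for median-of-ratios factors.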

Additional observations from a re-analysis of the deposited data

How the results depend on the processing

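Under 9 alternatives, the median log2 ratio of the 7 markers ran from -0.10 to 0.01, and the count of markers above equality was 1 each time. That marker was *Npy*, whose interval several of these settings leave unchanged. Scaled to the β-cell maturity list, the count below equality went from 1 to 0, *Ucn3* had a log2 ratio of 0.01, and the medians of the β-cell maturity list and of the endocrine progenitor cascade were both 0.00. This scaling sets its own list near 0 by construction and moved the median of all genes to 0.101. With trends with GC content and length removed, *Ucn3* had -0.14. With a minimum mean of 1 count, 1198 genes were at least 2-fold higher and 445 at least 2-fold lower, and with 50 counts 82 and 23, since the minimum sets how many genes are tested. *Sox9* has no value at a minimum of 50 counts. Lists with fewer than 6 genes past the minimum were not rerun. Depth limits *Sox9*, *Gast* and *Cck* most. No paired analysis was possible because the labels give no pairing between the groups and no test was run, and leaving out a replicate would leave a group empty.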

Other observations

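Further lists describe the rest of these 2 islet preparations, in which 13.2% of all genes lay above and 13.7% below equality. Of 16 acinar markers with enough counts, 14 lay below and 1 (*Amy2a5*, log2 ratio 0.62) above equality, and digestive enzyme genes such as *Cpa1* (-0.52), *Clps* (-0.57) and *Ctrb1* (-0.34) were lower in the AE-F2 library. Of 15 immediate early genes 12 lay below equality, with *Atf3* at -3.33, *Npas4* at -2.53 and *Fosb* at -1.80, and *Fos* and *Jun* at -0.99 and -0.65. Of 9 proliferation genes 6 lay above equality, with *Mki67* at 1.21, *Top2a* at 1.08 and *Ccnb2* at 1.42, *Mcm2* at 0.51, and *Pcna* at 0.07 (-0.09 to 0.23). The median of the proliferation genes was 0.74, and 0.85 when the AE-F2 library was thinned to the control-F2 total. Lymphocyte markers were higher in the same library (19.1 and 388 CPM, 7 of 7 above equality), and their part in the proliferation genes was not tested.

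Other cell types of the islet were closer to even. The 6 δ-cell markers had 1 above equality (*Lepr*, 38 and 91 counts), and somatostatin (*Sst*) had a log2 ratio of -0.01 (-0.03 to 0.01). Of the 4 PP and ε-cell markers *Pyy* lay above and ghrelin (*Ghrl*, 57 and 48 counts, log2 ratio -0.63, -1.22 to -0.05) below equality. The 8 endothelial markers had *Plvap* (0.11) above and *Kdr* (-0.09) below. The 8 macrophage markers had *Lyz2* (1.96) above and *C1qa* (-0.26) below. With 1 library per group these values describe the libraries, and none was compared across animals.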
